A study of Mus musculus with 6 samples.

Results

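Deubiquitinases are proteases that cut ubiquitin from proteins or trim ubiquitin chains, and so oppose the ubiquitin ligases. Ubiquitin-specific proteases (USP) and ovarian tumour proteases (OTU) are cysteine proteases, and smaller groups are the ubiquitin C-terminal hydrolases (UCH), the Josephin enzymes and the metalloproteases of the JAMM group. Cullin-RING ligases, whose RING subunit is Rbx1 or Sag, attach ubiquitin to many regulators, and several deubiquitinases act on the same substrates or bind these ligases. In regulatory T (Treg) cells, the CD4+ T cells that express *Foxp3* and restrain immune responses, some deubiquitinases are known to stabilise the FOXP3 protein or to set the strength of NF-κB and T cell receptor signals. The 74 genes described here, of 19505 measured, were taken by symbol. They are the 55 genes named Usp with a number, the 8 named Otud with a number, and *Otub1*, *Otub2*, *Otulin*, *Cyld*, *Bap1*, *Uchl1*, *Uchl3*, *Uchl5*, *Atxn3*, *Brcc3* and *Stambp*. The name USP and OTU families does not cover all of them, since *Bap1* and the Uchl genes are of the UCH group, *Atxn3* is a Josephin enzyme, and *Brcc3* and *Stambp* are metalloproteases. *Usp6nl* was taken by its symbol as well, although it encodes a GTPase-activating protein of Rab GTPases and no deubiquitinase.

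RNA was measured in 3 *Rbx1*&*Sag*-deficient samples, from Foxp3Cre/wt;Rbx1fl/fl;Sagfl/fl females, and in 3 control samples, from Foxp3Cre/wt females. All mice carried the *Foxp3* allele that drives YFP and Cre in *Foxp3*-expressing cells, and the CD4+YFP+ Treg cells were sorted from lymph nodes and spleen. *Foxp3* is X-linked, so these females also held Treg cells without Cre, which the sort on YFP left out. Each sample was a pool of 2 to 3 mice of 8 to 12 weeks, read on a single Clariom S mouse array, and p-values therefore measure the spread between pools. Values are the log2 probe set signals as the authors deposited them, fold changes are *Rbx1*&*Sag*-deficient minus control on that log2 scale, and a gene was called where the adjusted p from limma over all 19505 genes was under 0.05. Each of the 74 genes had a single probe set, and none was filtered out.

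*Rbx1* was 5.47 ± 0.40 (SD, n = 3) in *Rbx1*&*Sag*-deficient and 9.71 ± 0.42 (SD, n = 3) in control cells, whereas *Rnf7*, the symbol of *Sag*, was 10.7 ± 0.90 and 11.2 ± 0.28 and did not pass (adjusted p = 0.379 from limma), and whether its probe set lies in the deleted part is not known. The upper quartile of all signals was 6.93 to 7.37 in *Rbx1*&*Sag*-deficient arrays and 7.68 to 7.81 in control arrays. The sample titles carry the word muscle, but 8 of 10 skeletal muscle genes were near background in both groups, and the 8 measured T cell and Treg markers averaged 14.5 to 15.0 in *Rbx1*&*Sag*-deficient and 15.5 to 15.8 in control arrays, with 5 of them called lower. *Foxp3* has no named probe set here. Some markers of other cells were also lower. Of 10 myeloid genes 4 were called lower, *Cybb* (4.04 in *Rbx1*&*Sag*-deficient and 9.22 in control cells, -5.18), *Spi1* (-2.10), *Lyz2* (-1.91) and *Fcer1g* (-1.17), and the list averaged 3.42 to 3.57 in *Rbx1*&*Sag*-deficient and 4.28 to 4.73 in control arrays, with *Cd14*, *Itgam*, *Adgre1* and *S100a8* near background in both groups. Of 6 genes of CD8+ T and natural killer cells 2 were called lower, *Nkg7* (-2.84) and *Klrb1c* (-2.0) (array means 4.17 to 4.82 and 5.12 to 5.40, with *Cd8a* and *Ncr1* near background in both groups), and of 5 B cell genes 1, *Cd79b* (-1.81) (array means 3.62 to 3.78 and 3.97 to 4.13, with *Ms4a1*, *Pax5* and *Cd22* near background in both groups). *Cd8b1*, above background, was at 8.72 in *Rbx1*&*Sag*-deficient and 8.74 in control cells. On the positive side were 4 of the 10 myeloid genes, 2 of the 6 genes of CD8+ T and natural killer cells and 2 of the 5 B cell genes. None of these was called higher. The part of such cells in the results below was not tested. In bulk samples, fewer cells of a type and less RNA per cell cannot be told apart.

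Of the 74 genes, 6 were lower in *Rbx1*&*Sag*-deficient Treg cells and none was higher. They were *Usp18*, *Usp28*, *Usp32*, *Stambp*, *Usp45* and *Usp4*. Over all genes 9.49% were called lower and 2.7% higher, so that the 8.11% of deubiquitinase genes called lower was near the share of all genes. At an unadjusted p under 0.05 from limma, 15 were lower and 5 higher, or 20.3% and 6.76%, against 18.9% and 11.4% of all genes. The 3 *Rbx1*&*Sag*-deficient arrays lay below the 3 control arrays without overlap for 17 genes (23%, against 19.7% of all genes) and above them for 5 (6.76%, against 15.2%). The methods' t-test put 9 genes lower and 3 higher at P under 0.05, with shares over all genes of 14% and 9.27%. After Benjamini-Hochberg adjustment it called none of the 74 (smallest adjusted p = 0.0819) and 30 of all genes.

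The largest fall among the 6 was that of *Usp18*, whose product removes the ubiquitin-like protein ISG15 and restrains the type I interferon receptor, and which is itself induced by interferon. It read 7.83, 8.43 and 6.53 in *Rbx1*&*Sag*-deficient replicates 1, 2 and 3 and 9.16, 9.82 and 9.29 in control replicates 1, 2 and 3. All *Rbx1*&*Sag*-deficient arrays were below all control arrays, with replicate 3 lowest. *Usp18* fell by 1.83 (3.55-fold, standard error 0.44, adjusted p = 0.030 from limma), and by 1.29 (adjusted p = 0.0228 from limma) without *Rbx1*&*Sag*-deficient replicate 3.

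*Usp28* encodes a deubiquitinase that spares MYC and other substrates from the cullin-RING ligase receptor FBXW7. Its signals were 5.60, 4.95 and 6.09 in *Rbx1*&*Sag*-deficient cells, against 6.73, 7.17 and 7.38 in control cells. The groups did not overlap, and *Usp28* fell by 1.55 (2.92-fold, standard error 0.32, adjusted p = 0.0173 from limma). *Usp4*, which trims chains on TRAF proteins and on the type I TGF-β receptor, read 10.05, 10.66 and 10.12 in *Rbx1*&*Sag*-deficient cells and 10.95, 11.24 and 11.28 in control cells. It fell by 0.88 (1.84-fold, standard error 0.24, adjusted p = 0.0464 from limma), without overlap.

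Both *Usp32* and *Stambp* act on endosomes and other membranes. *Usp32*, a membrane-anchored enzyme of the Golgi and endosomes, was at 4.83, 5.28 and 5.19 in *Rbx1*&*Sag*-deficient cells, against 6.19, 6.51 and 6.29 in control cells. It fell by 1.23 (2.35-fold, standard error 0.22) and had the smallest adjusted p of the 74 genes, 0.0109 from limma. *Stambp* encodes AMSH, a metalloprotease that cuts K63-linked chains on endosomes together with the STAM adaptors. Its signals were 9.05, 8.28 and 8.64 in *Rbx1*&*Sag*-deficient and 9.92, 9.49 and 9.53 in control cells, a fall of 0.99 (1.99-fold, standard error 0.26, adjusted p = 0.0401 from limma). *Usp45*, which in human cells acts on the DNA repair endonuclease subunit ERCC1, read 8.47, 8.56 and 8.34 in *Rbx1*&*Sag*-deficient and 9.0, 9.69 and 9.60 in control cells. It fell by 0.97 (1.96-fold, standard error 0.25, adjusted p = 0.0352 from limma). In each of these 3 genes the highest *Rbx1*&*Sag*-deficient array was below the lowest control array.

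**Figure D1:**
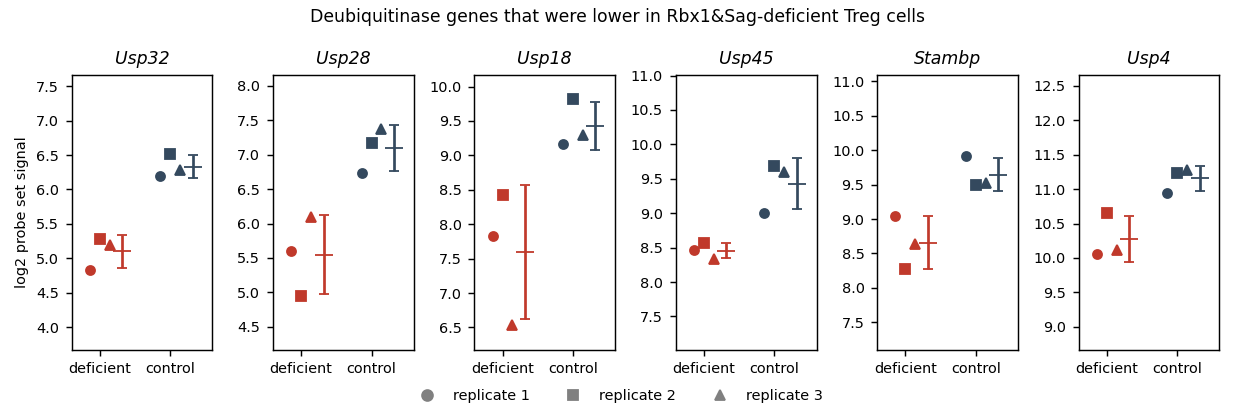
Log2 probe set signal of the 6 deubiquitinase genes that were lower, with each array as a point (marker shape for the replicate number) and the mean with its SD at the right of each group. Every panel has the same span on the log2 axis, and in each the 3 *Rbx1*&*Sag*-deficient arrays (left) lie below the 3 control arrays (right).

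These 6 calls depended on the scaling of the arrays. Without further normalization and after centring each array on its median all 6 were called. *Usp32* was the only one called with quantile scaling (-0.88, adjusted p = 0.0486 from limma) and with cyclic loess scaling (-0.89, adjusted p = 0.0365 from limma), and after centring on the median of the brighter genes only *Usp18* was (-1.23, adjusted p = 0.0221 from limma). The direction of all 6 was lower under each of these scalings. The folds grew with median centring (*Usp4* was at -1.06) and shrank with the others. With quantile, cyclic loess and brighter-gene scaling *Stambp* was at -0.43, -0.45 and -0.40, *Usp45* at -0.40, -0.43 and -0.38, and *Usp4* at -0.40, -0.37 and -0.29. *Usp28* was at -1.03, -1.10 and -0.95. They also depended on single arrays. Without control replicate 2 or control replicate 3 none of the 74 genes was called, where 2.79% and 3.1% of all genes were lower. *Usp28* and *Usp32* were still called without any 1 of the other 4 arrays. *Stambp* was lost without *Rbx1*&*Sag*-deficient replicate 2 or 3 or control replicate 1, *Usp45* without *Rbx1*&*Sag*-deficient replicate 1 or 3, *Usp18* without *Rbx1*&*Sag*-deficient replicate 1 or control replicate 1, and *Usp4* without any of these arrays but *Rbx1*&*Sag*-deficient replicate 2.

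The regulatory sequence next to the starts of these genes is given because it shows a feature that the choice by symbol did not use. Upstream sequences were taken from RefSeq (build GRCm38.p6), whose table held one for 59 of the 74 genes and for 5 of the 6 that were lower, with *Usp18* the gene without. In the 250 bases before the start, the 44 genes above background in at least 1 group held a median of 24 CpG dinucleotides (range 5 to 55), and the 15 near background in both groups a median of 7 (range 0 to 28). Over all genes with such a sequence, these medians were 16 (n = 8839) and 4 (n = 6852). Near background means here a group mean below the 95th percentile of 1091 olfactory receptor genes. The 150 bases nearest to the start are printed for the 5 genes that were lower and for *Usp17la* and *Usp50*, which were near background in both groups, with CpG in capitals. They lie, in this order, at chr11:85139956-85140105, minus strand, chr9:48985235-48985384, plus strand, chr9:108347681-108347830, plus strand, chr4:21776120-21776269, plus strand, chr6:83572505-83572654, minus strand, chr7:104856866-104857015, plus strand and chr2:126783461-126783610, minus strand.
Usp32: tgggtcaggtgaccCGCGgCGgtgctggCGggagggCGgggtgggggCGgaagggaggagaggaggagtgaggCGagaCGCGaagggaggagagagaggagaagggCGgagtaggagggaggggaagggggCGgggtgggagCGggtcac
Usp28: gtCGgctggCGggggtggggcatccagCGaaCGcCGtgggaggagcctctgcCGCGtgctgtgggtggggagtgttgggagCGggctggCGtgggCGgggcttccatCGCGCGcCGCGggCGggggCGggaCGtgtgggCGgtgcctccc
Usp4: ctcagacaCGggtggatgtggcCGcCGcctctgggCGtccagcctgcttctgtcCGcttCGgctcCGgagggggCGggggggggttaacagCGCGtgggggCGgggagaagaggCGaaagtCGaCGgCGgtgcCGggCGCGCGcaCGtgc
Usp45: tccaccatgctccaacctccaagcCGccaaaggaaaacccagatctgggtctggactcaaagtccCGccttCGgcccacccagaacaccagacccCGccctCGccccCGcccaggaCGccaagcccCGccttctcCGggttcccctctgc
Stambp: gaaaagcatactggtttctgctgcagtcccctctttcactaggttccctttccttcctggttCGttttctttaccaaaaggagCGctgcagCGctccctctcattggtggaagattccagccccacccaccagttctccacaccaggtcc
Usp17la: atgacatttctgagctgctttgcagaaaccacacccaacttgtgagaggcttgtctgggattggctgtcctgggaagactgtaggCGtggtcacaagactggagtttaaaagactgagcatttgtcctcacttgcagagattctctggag
Usp50: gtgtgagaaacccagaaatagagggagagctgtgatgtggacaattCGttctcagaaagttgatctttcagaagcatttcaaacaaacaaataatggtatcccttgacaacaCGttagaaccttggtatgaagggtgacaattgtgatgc
*Usp28* and *Usp4* held 19 and 20 CpG in the bases shown, *Usp32* 12 and *Usp45* 9, against 1 and 2 in *Usp17la* and *Usp50*. *Stambp* held 3. The 5 had a median of 26 CpG in 250 bases (range 9 to 26), and the 39 other genes above background a median of 24. *Usp17la* and *Usp50* were from the CpG-poor end of the genes near background in both groups. In the same 150 bases *Usp13* and *Usp2*, also near background, held 20 each and *Usp35* held 13. Over 10 CpG in 250 bases were found in 5 of the 15 genes near background and in 38 of the 44 above it.

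The same 250 bases were searched on both strands for sites of factors that respond to immune signals. The interferon-stimulated response element, written as GAAA, any 2 bases and GAAA, was in none of the 59 deubiquitinase sequences searched, which did not include *Usp18*, and in 3.46% of the 27025 RefSeq genes with such a sequence, over which the shares below were counted as well. The NF-κB site, written as GGGA, any base and TTTCC, was found only in *Cyld* (0.414% of RefSeq genes), and the cyclic AMP response element TGACGTCA only in *Otud7a* (1.77% of RefSeq genes). The E box CACGTG was in 8 of the 59, *Usp4* and *Otud1* among them, and in 6.86% of RefSeq genes. AP-1 sites (TGANTCA) were in *Otub2*, *Usp26*, *Usp31* and *Usp38* (7.82% of RefSeq genes).

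A further 4 genes had an unadjusted p under 0.05 from limma and a difference above 1 on the log2 scale without being called. *Usp14*, the deubiquitinase that docks on the proteasome, was at 5.62, 6.73 and 5.85 in *Rbx1*&*Sag*-deficient and at 6.94, 7.03 and 7.24 in control cells (log2 fold change -1.0, adjusted p = 0.0618 from limma). Its groups did not overlap, but replicate 2 of the *Rbx1*&*Sag*-deficient cells was near the control values, and without it *Usp14* was called (-1.33, adjusted p = 0.00878 from limma). *Otub1*, whose product blocks the K63-specific conjugating enzyme UBC13 by binding it, had signals of 12.31, 12.16 and 10.05 in *Rbx1*&*Sag*-deficient and of 12.71, 13.27 and 12.81 in control cells (-1.42, adjusted p = 0.111 from limma). All *Rbx1*&*Sag*-deficient arrays were below the control arrays, with replicate 3 far below the other two, and without it the difference was -0.70 (adjusted p = 0.111 from limma). *Usp6nl*, the Rab GTPase-activating protein, was at 7.08, 8.76 and 7.52 against 8.72, 9.02 and 8.83 in control cells (-1.07, adjusted p = 0.104 from limma), with replicate 2 inside the control range, and was called without that array (-1.56, adjusted p = 0.00627 from limma).

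*Otud1*, an OTU enzyme that cuts K63-linked chains, was on the higher side. It was at 5.11, 5.58 and 3.91 in *Rbx1*&*Sag*-deficient and at 4.08, 3.82 and 3.54 in control cells (1.05, adjusted p = 0.112 from limma). Its control mean of 3.81 was just above the background bound of 3.75 for control cells. *Rbx1*&*Sag*-deficient replicate 3 lay within the control range and under the bound of 4.44 for its group. Without that array *Otud1* was called higher (1.53, adjusted p = 0.00775 from limma), and without *Rbx1*&*Sag*-deficient replicate 2 it was at 0.70 (adjusted p = 0.215 from limma). *Usp38*, an enzyme that acts on the kinase TBK1, had a higher signal, with 12.22, 12.54 and 11.40 in *Rbx1*&*Sag*-deficient and 10.78, 11.17 and 11.28 in control cells. Its groups did not overlap, but the difference of 0.98 (standard error 0.31) did not pass (adjusted p = 0.0744 from limma). It was called after quantile (1.44, adjusted p = 0.0147 from limma) and with cyclic loess scaling (1.47, adjusted p = 0.00866 from limma) and without *Rbx1*&*Sag*-deficient replicate 3 (1.30, adjusted p = 0.0126 from limma).

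**Figure D2:**
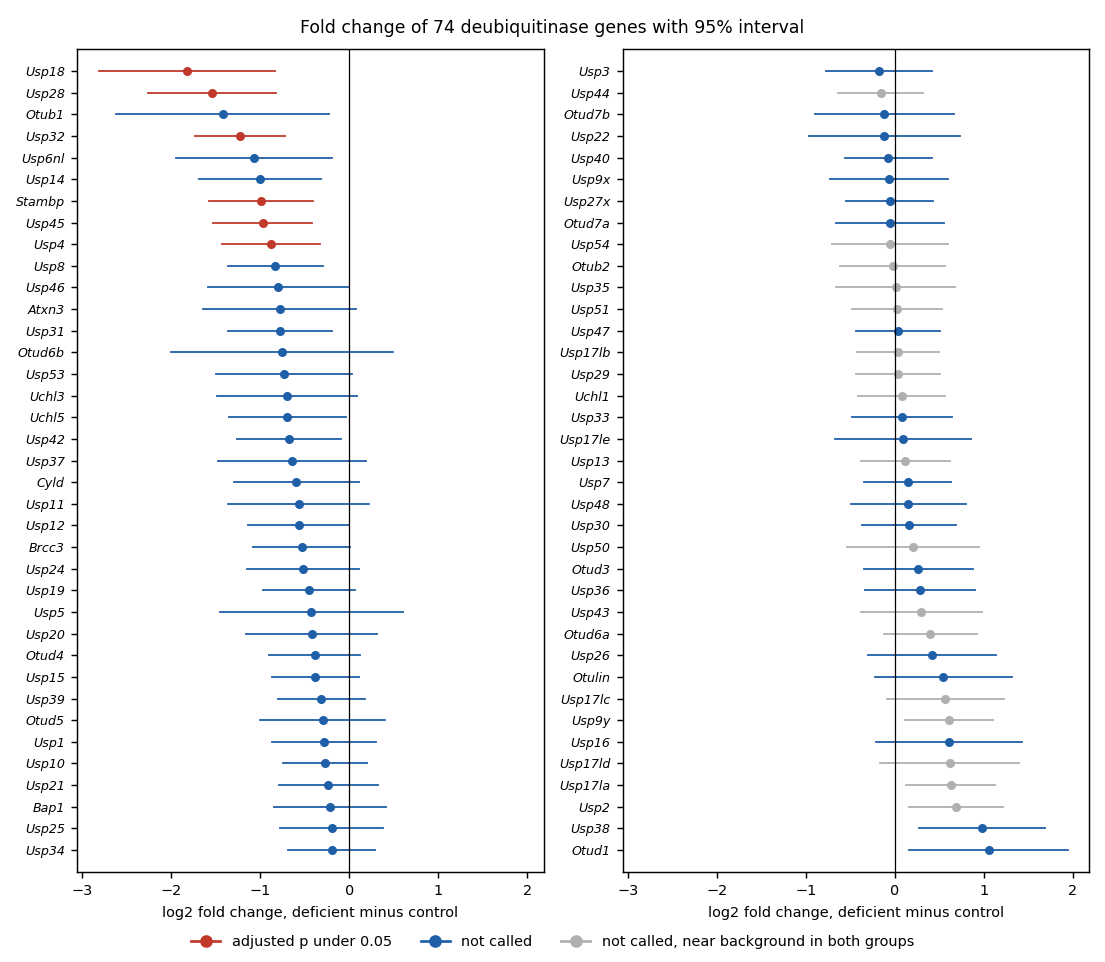
Log2 fold change (point) and its 95% interval from limma (line) for the 74 genes, ordered by fold change from the most negative at the top left to the most positive at the bottom right. The 6 called genes, in red, lie on the negative side, and grey marks the 17 genes near background in both groups.

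Genes linked to FOXP3 or to T cell programmes did not pass the test (0 of 7 called, median log2 fold change -0.16, against 0.04 over all genes). All but *Usp44* were above the median signal, where 18.3% of all genes were called lower and the median was -0.40. *Usp7*, which stabilises FOXP3 and MDM2, was at 13.4 ± 0.20 (SD, n = 3) in *Rbx1*&*Sag*-deficient and 13.3 ± 0.13 (SD, n = 3) in control cells. Its difference of 0.14 had a 95% interval of -0.35 to 0.63. On the values as deposited this leaves out a change of 2-fold in either direction, and no interval is given here for other scalings. *Usp21*, another enzyme that acts on FOXP3, differed by -0.23 (95% interval -0.78 to 0.32). *Usp22*, the H2B deubiquitinase of the SAGA coactivator, differed by -0.12, with the wide interval of -0.97 to 0.73, since its *Rbx1*&*Sag*-deficient arrays read 9.32, 10.71 and 9.28. *Usp9x*, an X-linked enzyme of T cell receptor signalling, differed by -0.07 (-0.73 to 0.59) and *Usp1*, of DNA repair, by -0.28 (-0.87 to 0.30). *Usp11*, which supports TGF-β signals, was at 6.50, 7.07 and 5.60 in *Rbx1*&*Sag*-deficient and 7.07, 6.78 and 7.03 in control cells (-0.57, -1.36 to 0.22). *Usp44*, also a partner of FOXP3, was near background in both groups, at 2.66 ± 0.11 and 2.82 ± 0.17 (SD, n = 3 each). The sign of each of these 7 differences turned under at least 1 of the scalings tried, so that none of them has a settled direction. Centring on the brighter genes also put *Usp7* past the threshold (0.73, adjusted p = 0.0437 from limma).

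Among partners or opponents of cullin-RING ligases, 1 of 6 was called, *Usp28*, and the median was -0.20. All 6 were above the median signal, where 18.3% of all genes were called lower and the median was -0.40. *Usp36*, a nucleolar enzyme that also spares MYC, had 7.54 ± 0.49 (SD, n = 3) in *Rbx1*&*Sag*-deficient and 7.26 ± 0.13 (SD, n = 3) in control cells (0.28, 95% interval -0.34 to 0.90). It was at 0.87 (adjusted p = 0.0485 from limma) with centring on the brighter genes, at 0.88 with quantile scaling and at 0.03 without *Rbx1*&*Sag*-deficient replicate 3. *Usp20* and *Usp33*, which bind the ligase receptor VHL, differed by -0.42 (-1.16 to 0.32) and 0.08 (-0.48 to 0.64). *Usp37*, a cell cycle enzyme, was at 5.90, 6.72 and 5.39 in *Rbx1*&*Sag*-deficient and 6.46, 6.30 and 7.19 in control cells (-0.65, -1.48 to 0.19). *Usp47*, a partner of the F-box protein β-TrCP, stood at 10.52, 10.46 and 10.26 in *Rbx1*&*Sag*-deficient and 10.48, 10.21 and 10.46 in control cells. Its difference of 0.03 (-0.44 to 0.50) was the smallest of the 57 genes above background in at least 1 group.

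In the group of NF-κB and innate signalling 2 of 11 were called, *Usp18* and *Usp4*, with a median of -0.30. All but *Otub2* were above the median signal, where 18.3% of all genes were called lower and the median was -0.40. *Cyld*, which cuts K63-linked and linear chains and restrains NF-κB, differed by -0.59 (95% interval -1.29 to 0.11), and *Otulin*, which cuts linear chains only, by 0.54 (-0.23 to 1.32). Neither passed the test, and in both *Rbx1*&*Sag*-deficient replicate 3 was the lowest of its group, at 9.79 for *Cyld* and 8.36 for *Otulin*. *Usp15* (-0.38), *Otud5* (-0.30) and *Usp25* (-0.20) differed by less. Of 8 genes of membrane traffic and organelles 2 were called, *Usp32* and *Stambp*, and the median of -0.81 was the most negative of the 6 role groups. All 8 were above the median signal, where 18.3% of all genes were called lower and the median was -0.40. *Usp6nl* (-1.07), which encodes no deubiquitinase, was among them. *Usp8*, which like *Stambp* works with the STAM adaptors on endosomes, was next to the threshold, at 10.38, 9.85 and 10.45 in *Rbx1*&*Sag*-deficient and 11.18, 11.08 and 10.91 in control cells (-0.83, adjusted p = 0.0523 from limma). *Atxn3*, the ataxin whose product helps VCP (-0.78), *Usp19* of the endoplasmic reticulum (-0.45), *Usp10* of stress granules (-0.27) and *Usp30* of mitochondria (0.15) did not pass.

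Enzymes of the proteasome and of free ubiquitin gave no call in 6 genes (median -0.56). For this group and those below, 9.49% of all genes were called lower and 19.7% were lower without overlap, with a median of 0.04. Above the median signal, 18.3% of all genes were called lower and the median was -0.40. Besides *Usp14*, *Uchl5*, the other cysteine protease of the proteasome cap, was at 8.65, 9.03 and 7.93 in *Rbx1*&*Sag*-deficient and 9.16, 9.20 and 9.34 in control cells, without overlap (-0.70, adjusted p = 0.145 from limma). *Uchl3* differed by -0.70 and *Usp5*, which disassembles free chains, by -0.43, while *Usp13* and *Uchl1* were near background in both groups. Of 8 measured enzymes of histones and chromatin none was called (median -0.20). *Brcc3* (-0.53) did not overlap between the groups. *Usp46* (-0.80), whose *Rbx1*&*Sag*-deficient mean of 3.85 was below the background bound, did not overlap either, and *Usp12* (-0.57) did. *Bap1* (-0.22) and *Usp3* (-0.18) differed little, and *Usp16*, an H2A deubiquitinase, was higher in *Rbx1*&*Sag*-deficient replicate 3 than in any other array, at 10.60 (0.61, adjusted p = 0.289 from limma). The 28 genes outside these groups held 1 call, *Usp45*, and a median of 0.03.

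Whether a deubiquitinase gene stood lower or higher went with its signal, as it did for genes at large. The 56 genes above the median signal had a median log2 fold change of -0.39, and the 9747 genes of such signal one of -0.40. In this range 44 of the 56 were on the negative side, and 6 (10.7%) were called lower, against 18.3% of all genes of such signal. The 17 genes near background in both groups had a median of 0.12, with 14 of 17 on the positive side. Across 4 equal bins of mean signal, from the dimmest to the brightest, the medians of the deubiquitinase genes were 0.20, 0.03, -0.23 and -0.39, and those of all genes 0.19, 0.26, -0.27 and -0.50. The median over all 74 was -0.19, against 0.04 over all genes. After quantile and cyclic loess normalization, which even out the signal distributions, it was -0.01 and -0.02. Centring on the brighter genes carried the median of all genes to 0.64 and that of the 74 to 0.41. With this scaling 14 of the 74 were called higher, against 35.7% of all genes. Relative to the median of all genes, the median of the 74 was -0.23 as deposited, and -0.03 with either quantile or cyclic loess normalization.

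**Figure D3:**
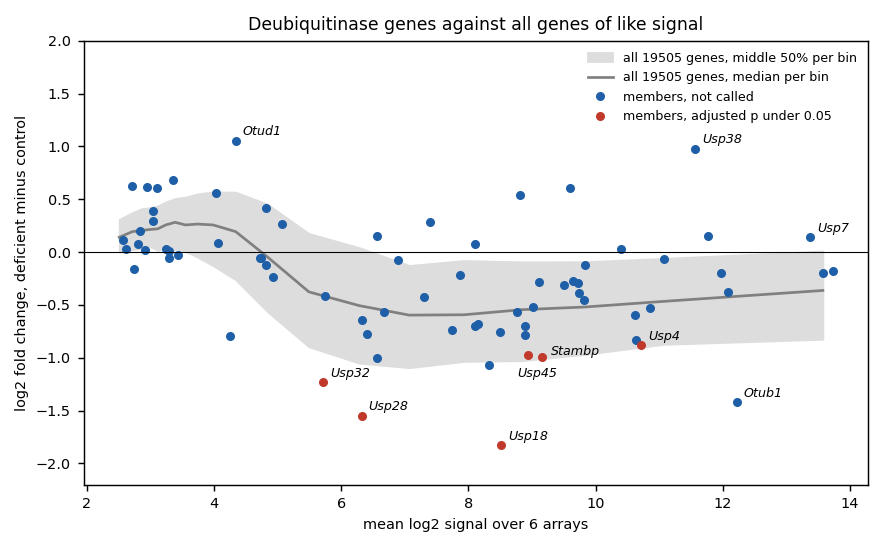
Log2 fold change of the 74 genes (points, red where called) against their mean log2 signal over 6 arrays. The grey line and band give the median and the middle 50% of all 19505 genes in 20 bins of signal. *Usp18*, *Usp28*, *Usp32* and *Otub1* are among the genes below the band and *Usp38* and *Otud1* among those above it. The called genes *Stambp*, *Usp45* and *Usp4* lie within the band, near its lower edge.

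*Rbx1*&*Sag*-deficient replicate 3 carried many of the low values. Among the 57 genes above background in at least 1 group it was the lowest of the 3 *Rbx1*&*Sag*-deficient arrays for 27 (47.4%), against 46.5% of all genes above background. The median difference of these 57 from the control mean was -0.40, -0.16 and -0.60 in *Rbx1*&*Sag*-deficient replicates 1, 2 and 3, and -0.34, -0.19 and -0.48 over all genes above background. The array thus stood out for deubiquitinase genes about as it did for genes at large. *Otud6b* showed this most, at 9.03, 8.74 and 6.58 in *Rbx1*&*Sag*-deficient and 9.0, 8.97 and 8.65 in control cells. *Otub1* was next, and *Usp5*, at 7.67, 7.73 and 5.85 in *Rbx1*&*Sag*-deficient and 7.71, 7.47 and 7.35 in control cells, followed. In these 3 genes the SD of the *Rbx1*&*Sag*-deficient arrays was over 1, at 1.34, 1.26 and 1.07, and no control SD was over 1 in any of the 74. The SD was larger in *Rbx1*&*Sag*-deficient than in control arrays for 55 of the 74 genes (74.3%, against 68.8% of all genes), with medians of 0.42 and 0.21.

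**Figure D4:**
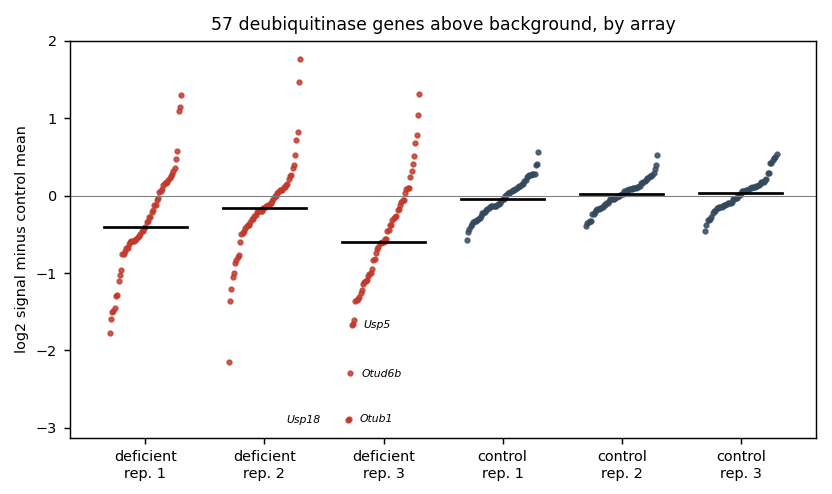
Log2 signal minus the control mean for the 57 deubiquitinase genes above background, sorted within each array, with a black bar at the median. *Rbx1*&*Sag*-deficient replicate 3 has the lowest median (-0.60) and reaches furthest down, with *Usp18* and *Otub1* lowest, while the control arrays stay near 0.

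The wider ubiquitin system was described by lists written with earlier results of these data known. Of 20 measured genes for deubiquitinases and their relatives outside the 74, 4 were lower and 1 was higher. Not all 20 encode enzymes that cut ubiquitin. The higher gene was *Tnfaip3*, which encodes A20, an OTU enzyme that restrains NF-κB, at 19.23, 19.11 and 17.09 in *Rbx1*&*Sag*-deficient and 14.91, 14.62 and 14.48 in control cells (3.81, adjusted p = 0.00292 from limma). Its groups were far apart, and replicate 3 was again the lowest *Rbx1*&*Sag*-deficient array. The lower genes were *Zup1* (-2.90), an enzyme of long K63-linked chains, *Mindy2* (-1.20), *Vcpip1* (-1.16), a partner of VCP, and *Uspl1* (-0.85), which acts on SUMO. Among 22 measured cofactors 4 were lower and none higher, and they pair with deubiquitinases described above. *Wdr48*, the activating subunit of Usp1, Usp12 and Usp46, fell by 1.64 (adjusted p = 0.0141 from limma), while *Usp1*, *Usp12* and *Usp46* were not called. *Asxl2* (-1.54) and *Hcfc1* (-0.81) bind Bap1, whose gene was not called either. *Stam2* (-1.23), an adaptor of the endosome, was lower together with *Stambp*. Of 13 genes that assemble K63-linked and linear chains 2 were lower, *Traf2* (-1.61) and *Ube2n* (-0.97), the gene of UBC13, and none was higher. Of *Uba6* and *Uba7*, the 2 measured genes among ubiquitin precursors and E1 enzymes, *Uba6* was lower (-1.54). The medians were -0.70 for the deubiquitinases and relatives outside the 74, -0.13 for cofactors and -0.46 for chain assembly. Over all genes the median was 0.04. It was -0.40 over genes above the median signal, of which 18.3% were called lower.

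**Figure D5:**
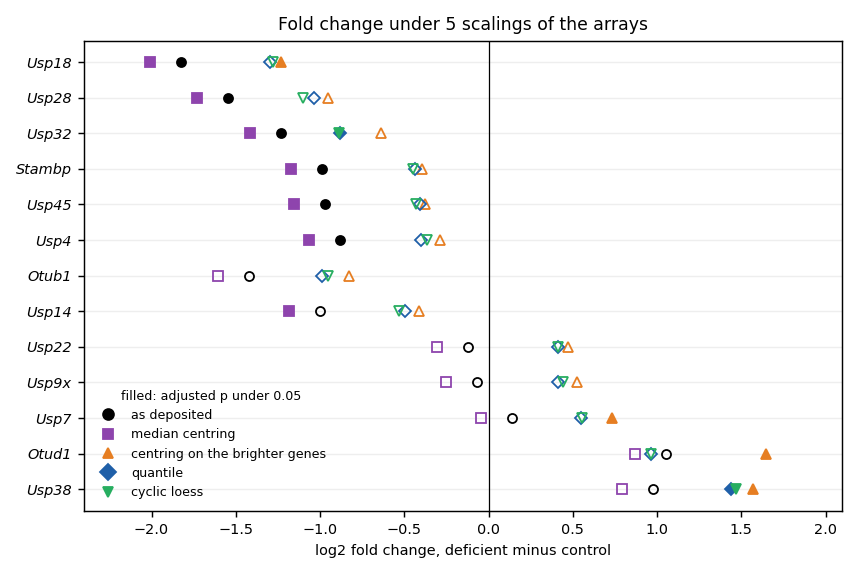
Log2 fold change of 13 deubiquitinase genes as deposited and under 4 further scalings of the arrays, with filled markers where the adjusted p from limma was under 0.05. The 6 called genes stay on the negative side throughout, *Otud1* and *Usp38* on the positive side, and *Usp22*, *Usp9x* and *Usp7* change sign.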

How the data were processed

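RNA of sorted CD4+YFP+ Treg cells was hybridised to Clariom S mouse arrays, 3 per genotype. The authors made log2 probe set signals with Affymetrix Expression Console 1.4 and deposited them for 22206 probe sets. How probes were summarised and normalized, and on which build, is not given in the sources used here. Through the platform annotation 19572 probe sets had a symbol, 0 had several and 2634 had none. The brightest probe set per symbol was kept, which gave 19505 genes, and all 74 members matched RefSeq by gene ID. The log2 values were used as deposited. The two-sided moderated test of limma 3.58.1 (R 4.3.3; lmFit, then eBayes) set the genotypes against each other with no covariate, and p-values were adjusted over all genes by Benjamini-Hochberg. For 3 against 3 arrays the smallest exact two-sided permutation p is 0.1, so such a test was not used.

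The members and lists were chosen with earlier results of these data known. By rule, values in every array were given for called members and for others with an unadjusted p under 0.05 and a log2 difference above 1. Members of the FOXP3 and cullin-RING ligase lists were named whether or not they passed. From the other lists up to 4 genes with the smallest p were named. Other genes, and array values of other members, were chosen after their values were seen. The alternatives tried were an intensity trend, robust moderation, array weights, 4 further normalizations, the methods' t-test (log2 or linear scale), a replicate block, a filter on dim genes, use of all probe sets, omission of each array in turn, and fewer members. The fit was tested on simulated data of 19505 genes, with 100 changed at each size and the same variance in both groups. It made 9 false calls and found 21% of log2 changes of size 1 and 97% of those of size 2. In the real data more genes were called, and the SD was larger in *Rbx1*&*Sag*-deficient arrays for 68.8% of genes. The simulated rates therefore need not hold for this comparison. The number of arrays limits the precision.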

Additional observations from a re-analysis of the deposited data

How the results depend on the processing

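The methods' t-test called 0 members lower on either scale after adjustment. Members called lower numbered 3 with an intensity trend, 10 with array weights, 9 with median centring, and 1 each with centring on the brighter genes, quantile and cyclic loess normalization. Members called higher numbered 1 with an intensity trend, 3 with array weights, 14 with centring on the brighter genes and 1 each with quantile and cyclic loess normalization. With quantile and cyclic loess normalization this was *Usp38*. The shares of all genes called lower and higher were 8.82% and 3.8% with the trend, 11.4% and 3.85% with array weights, 12.8% and 1.43% with median centring, 4.67% and 35.7% with centring on the brighter genes, 3.76% and 2.74% with quantile and 4.49% and 3.24% with cyclic loess normalization. With each array left out in turn 0 to 10 members were called lower and 0 to 2 higher, and the median ranged from -0.243 to -0.145. No member was called without control replicate 2 or 3, where 2.79% and 3.1% of all genes were lower, 3 were called lower without control replicate 1 or *Rbx1*&*Sag*-deficient replicate 1 (all genes 4.17% and 6.4%), and 10 without *Rbx1*&*Sag*-deficient replicate 2 (13.4%). The median of members was -0.372 with median centring, 0.405 with centring on the brighter genes, -0.009 with quantile and -0.022 with cyclic loess normalization, -0.385 over genes above the median signal and -0.347 without *Usp6nl* and members near background. The all-gene medians beside these were -0.14, 0.637, 0.017, 0.005, -0.397 and 0.04. The cause of these shifts was not tested.

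Some differences that had not passed changed sign, and none passed after the change. *Usp7* (-0.043), *Usp33* (-0.103) and *Usp47* (-0.153) did so with median centring. With centring on the brighter genes these were *Usp11* (0.023), *Usp20* (0.173), *Usp1* (0.310), *Usp21* (0.360), *Usp44* (0.430), *Usp22* (0.473) and *Usp9x* (0.527). *Usp1*, *Usp22* and *Usp9x* were at 0.255, 0.412 and 0.413 with quantile and at 0.260, 0.412 and 0.439 with cyclic loess normalization. With the methods' t-test on linear values *Usp22* (0.035) and *Usp9x* (0.005) changed sign. With an array left out the range was -0.590 to 0.125 for *Usp22*, -0.362 to 0.198 for *Usp9x*, -0.108 to 0.227 for *Usp33* and -0.057 to 0.107 for *Usp47*.

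With the replicate number as a block, 5 members were called lower and 0 higher (all genes 10.3% and 2.74%), and *Usp4* was no longer among them. Deviations of same-numbered arrays from their group means correlated at 0.009, 0.109 and 0.021, and the labels tie the numbers to no litter or day, so that the arrays share only a number. Each of the 6 called members stayed on the lower side under its 18 alternatives. *Usp32* kept its call under 13 of them and *Usp4* under 6.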

Other observations

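The deubiquitinase genes of the sex chromosomes are described here because the sort on YFP keeps, in both genotypes, cells in which the X chromosome with the Cre allele is active. Of 8 X-linked members 0 were called from limma, also at an unadjusted p under 0.05, and their median log2 fold change was -0.06. The shares of all genes lower and higher were 9.49% and 2.7% when called, and 18.9% and 11.4% at an unadjusted p under 0.05 from limma. Without overlap 1 of the 8 was lower and 1 higher, against 19.7% and 15.2% of all genes. *Brcc3*, a K63-specific metalloprotease, was at 10.56, 10.92 and 10.29 in *Rbx1*&*Sag*-deficient and 11.36, 11.00 and 11.01 in control cells, without overlap. *Otud5* read 9.58 ± 0.53 and 9.88 ± 0.35 (SD, n = 3 each), and *Usp27x*, of the same H2B-directed group as *Usp22*, 4.69 ± 0.21 and 4.75 ± 0.14 (SD, n = 3 each). *Usp9y*, the Y-linked homologue of *Usp9x*, is a gene that the females named in the methods should lack, and its signals of 3.46, 3.60 and 3.16 in *Rbx1*&*Sag*-deficient and of 2.74, 2.74 and 2.92 in control cells were near background in both groups. The *Rbx1*&*Sag*-deficient arrays were above the control arrays without overlap (0.61, adjusted p = 0.0997 from limma). Of 7 measured Y-linked genes 6 were on the positive side, with array means of 3.21 to 3.35 in *Rbx1*&*Sag*-deficient and of 2.84 to 2.95 in control cells. None was called, where 2.7% of all genes were higher. Without overlap 4 of the 7 were higher (15.2% of all genes), and 3 were higher at an unadjusted p under 0.05 from limma (11.4% of all genes). Near background in both groups were 6 of the 7. *Sry*, at 5.43 in *Rbx1*&*Sag*-deficient and 4.81 in control cells, was above background in both.

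The Usp17l genes, a cluster of near-identical copies, cannot be told apart with certainty by probes. All 5 had positive differences, between 0.03 and 0.62, and 4 of them were near background in both groups. *Usp17la* was at 3.17, 2.89 and 3.02 in *Rbx1*&*Sag*-deficient and 2.45, 2.15 and 2.61 in control cells (0.62, adjusted p = 0.0975 from limma), a difference of the size seen for *Usp9y*. *Usp2* (0.68), near background in both groups as well, was at 4.06, 3.64 and 3.40 against 2.96, 3.07 and 3.03 in control cells. The background bound from olfactory receptor genes was 4.44 in *Rbx1*&*Sag*-deficient and 3.75 in control cells.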
